A study of Mus musculus with 4 samples.

Results

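The mt-Nd genes are the genes of mouse mitochondrial DNA that encode subunits of respiratory complex I. They were chosen by gene name and number 7: mt-Nd1, mt-Nd2, mt-Nd3, mt-Nd4, mt-Nd4l, mt-Nd5 and mt-Nd6. Of these, 6 were among the 10790 genes with values, all 6 passed the filter on low values, and mt-Nd4l was not analysed here. Whole mouse lenses of postnatal day 4 gave the RNA, in 2 pools of 15 Tdrd7 null (Tdrd7 -/-) lenses and 2 pools of 15 wild type control lenses. The labels call the pools biological replicates, give no batch and do not say which animals a pool came from. A p-value therefore rests only on spread between pools. In the limma tests below, most of that spread is borrowed from other genes of like intensity. Strain and sex of the mice, the way the Tdrd7 null allele was made and any treatment are not given in the sources used. TDRD7 is a Tudor-domain protein of cytoplasmic RNA granules, and loss of its function causes cataract.

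Complex I takes electrons from NADH, passes them to ubiquinone and pumps protons across the inner mitochondrial membrane. Its membrane arm is built around the mt-Nd proteins, which are made inside the organelle, while its other subunits are encoded in the nucleus and imported. Mitochondrial DNA is transcribed from both strands into long precursors that are then cleaved, largely at the tRNAs between the coding sequences, so that the stability of each mature RNA also sets its level. Of the mt-Nd genes, mt-Nd6 alone is read from the opposite strand. The lens adds a further feature: epithelial cells at its front hold mitochondria, whereas fiber cells degrade theirs as they mature. In whole-lens RNA, fewer cells of a type and less RNA per cell cannot be told apart.

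The coding starts show how differently the 2 strands are composed. The first 60 nt of each coding sequence are given 5′ to 3′ from GENCODE M21 transcripts (GRCm38), with the first codon in capitals.
mt-Nd1: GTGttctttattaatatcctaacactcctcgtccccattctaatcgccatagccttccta
mt-Nd2: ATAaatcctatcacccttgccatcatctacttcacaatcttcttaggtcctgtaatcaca
mt-Nd3: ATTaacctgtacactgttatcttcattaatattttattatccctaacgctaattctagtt
mt-Nd4: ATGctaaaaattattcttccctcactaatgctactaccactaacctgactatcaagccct
mt-Nd4l: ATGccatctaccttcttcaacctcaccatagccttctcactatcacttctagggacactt
mt-Nd5: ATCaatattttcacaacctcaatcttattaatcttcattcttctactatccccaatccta
mt-Nd6: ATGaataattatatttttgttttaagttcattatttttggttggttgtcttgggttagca

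Mitochondria read a modified genetic code, and only mt-Nd4, mt-Nd4l and mt-Nd6 opened with ATG. Over its whole 519 nt, mt-Nd6 held 28.1% G and 5.97% C. The 5 other measured mt-Nd genes held 8.0% to 11.6% G and 22.1% to 27.7% C, so the bias of mt-Nd6 was reversed. GC content was low in all 6, from 33.0% in mt-Nd3 to 37.6% in mt-Nd1. Lengths ran from 348 nt in mt-Nd3 to 1824 nt in mt-Nd5.

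The genes are packed end to end, and 2 places where mt-Nd genes overlap bear on how their reads can be assigned. In the next lines capitals mark the shared bases, or in the last line the single base that remains of a stop codon.
mt-Nd5 end: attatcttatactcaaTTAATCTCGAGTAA
mt-Nd6 end: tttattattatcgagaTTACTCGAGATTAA
mt-Nd4l end: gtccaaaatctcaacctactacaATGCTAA
mt-Nd4 start: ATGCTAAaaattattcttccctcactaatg
mt-Nd4 end: gtccaaaactaattacaggcctgacaataT

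The mt-Nd5 and mt-Nd6 coding sequences ran tail to tail and shared 14 nt on opposite strands (chrM:13552-13565). The kit does not mark strand, so a read from RNA of either strand over these genes was counted without regard to its strand, and sense and antisense RNA could not be told apart. The start of mt-Nd4 lay inside the last 7 nt of mt-Nd4l (chrM:10167-10173), and in mammals both are carried on 1 RNA. The mt-Nd4 coding sequence ended 1 base into its stop codon, which the poly(A) tail completes. RNA was selected by its poly(A) tail before sequencing, so a level here is that of RNA caught by its tail. In human cells the mt-Nd6 RNA is known to carry little or no tail.

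Of the 6 measured mt-Nd genes, 5 rose in Tdrd7 null lenses, by log2 fold changes of 0.30 to 0.62, and mt-Nd5 did not pass the test at 0.13. The increases were greatest for mt-Nd6 and mt-Nd3, the shortest measured mt-Nd genes. All 6 had both Tdrd7 null libraries above both control libraries, though for mt-Nd5 the gap was only 8.89 scaled reads. In this direction 30.2% of all tested genes showed such a separation. Values are scaled reads, that is read counts divided by 1 factor per library, and a gene was called at a limma adjusted p (Benjamini-Hochberg over 10696 genes) under 0.05. By that test 18.0% of all genes were called, and 10.1% were called higher. The 6 mt-Nd genes had a median log2 fold change of 0.35, against -0.01 over all tested genes. Base composition and length moved with these differences. With the trend of each library on GC content and length removed, 0 of the 6 were called higher or lower (limma), and 2 of the 6 had an unadjusted p under 0.05. Over all 10656 genes then tested, 208 (1.95%) were called higher and 142 lower. With so few genes called, 0 of 6 does not set the mt-Nd genes apart.

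**Figure D1:**
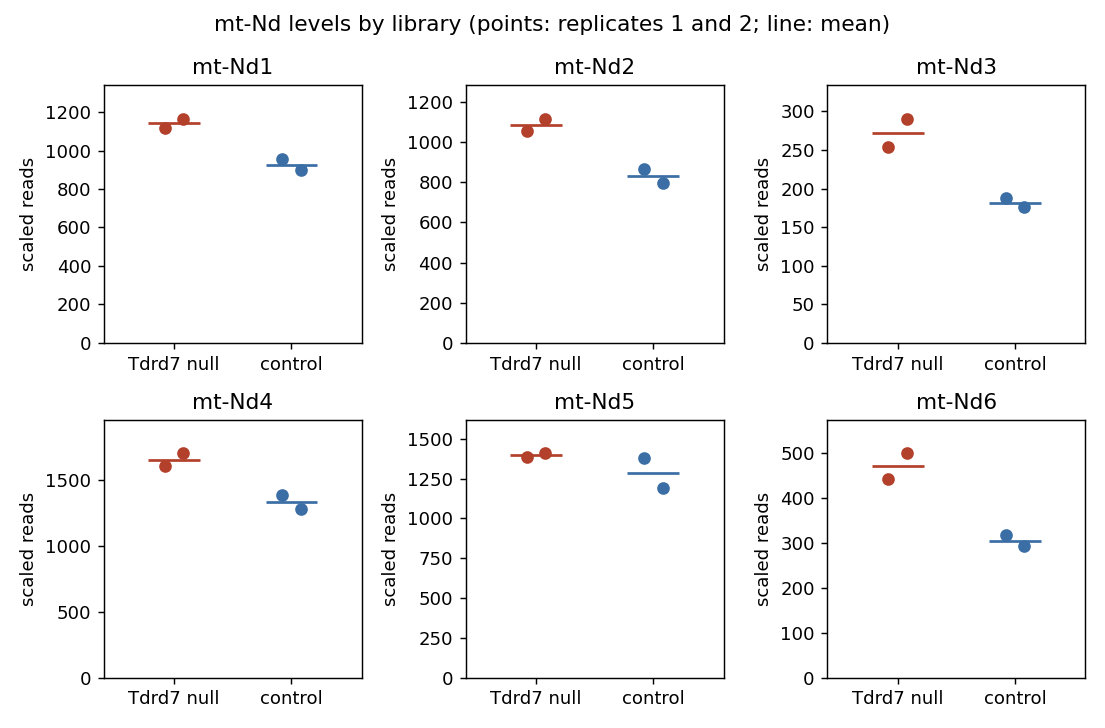
Scaled reads (vertical axis, from 0) of the 6 measured mt-Nd genes in each library, with Tdrd7 null pools in red, control pools in blue and group means as lines. The gap between genotypes is wide for mt-Nd3 and mt-Nd6, and for mt-Nd5 the lower Tdrd7 null pool lies only 8.89 scaled reads above the higher control pool.

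The antiporter-like subunits are the proton-pumping modules of the membrane arm, and mt-Nd2, mt-Nd4 and mt-Nd5 encode them. The mt-Nd2 gene (ENSMUSG00000064345, chrM:3914-4951, plus strand, GRCm38) encodes the module nearest the ubiquinone site. It had 1055 and 1116 scaled reads in Tdrd7 null replicates 1 and 2, against 863 and 796 in control replicates 1 and 2. The groups did not overlap, and the difference on the log2 scale was 0.39 ± 0.0627 (SE, limma adjusted p = 0.00245).

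The middle module, mt-Nd4 (ENSMUSG00000064363, chrM:10167-11544, plus strand), had 1606 and 1705 scaled reads in Tdrd7 null lenses, against 1392 and 1283 in control lenses. Every Tdrd7 null value was above every control value, by 0.31 ± 0.0665 on the log2 scale (SE, limma adjusted p = 0.00897). The distal module, mt-Nd5 (ENSMUSG00000064367, chrM:11742-13565, plus strand), sits at the tip of the arm and is the longest of these coding sequences. It had 1386 and 1408 scaled reads in Tdrd7 null lenses and 1377 and 1191 in control lenses. Control replicate 1 was almost as high as the Tdrd7 null pools, and the log2 fold change of 0.13 (SE 0.0719) did not pass (limma adjusted p = 0.244). Without control replicate 2 its log2 fold change was 0.02, and without control replicate 1 it was 0.23.

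The mt-Nd1 product helps form the chamber in which ubiquinone binds, at the junction of the membrane arm with the peripheral arm. The gene (ENSMUSG00000064341, chrM:2751-3707, plus strand) had 1118 and 1166 scaled reads in Tdrd7 null lenses, against 957 and 897 in control lenses. The groups did not overlap, and the log2 fold change reached 0.30 ± 0.0607 (SE, limma adjusted p = 0.00643). Without control replicate 2 the log2 fold change of mt-Nd1 was 0.25 and that of mt-Nd4 was 0.25. Without control replicate 1 they were 0.35 for mt-Nd1 and 0.37 for mt-Nd4.

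The small subunits mt-Nd3, mt-Nd4l and mt-Nd6 link the junction to the pumping modules, and a loop of the mt-Nd3 protein changes position between the active and the resting form of the enzyme. The mt-Nd3 gene (ENSMUSG00000064360, chrM:9459-9806, plus strand) had 253 and 291 scaled reads in Tdrd7 null lenses, against 188 and 176 in control lenses. Both Tdrd7 null pools were well above both control pools, by 0.57 ± 0.0659 on the log2 scale (SE, limma adjusted p = 0.000421). For mt-Nd6 (ENSMUSG00000064368, chrM:13552-14070, minus strand) the values were 441 and 500 scaled reads in Tdrd7 null lenses, against 317 and 294 in control lenses. Again the groups did not overlap, and the log2 fold change reached 0.62 ± 0.0654 (SE, limma adjusted p = 0.000310). For mt-Nd4l (chrM:9877-10173, plus strand, 297 nt, 41.1% GC) no value is given.

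Counting error was small beside the differences of the 5 called mt-Nd genes. The lowest library of mt-Nd3, the member with the fewest reads, held 7443 reads, for a counting error of 1.16%, and the lowest library of mt-Nd4 held 54259 reads, for 0.429%. Replicates differed by more than that. Tdrd7 null replicate 2 was above replicate 1 for all 6 genes, by 0.02 (mt-Nd5) to 0.20 (mt-Nd3) on the log2 scale. Control replicate 2 was below control replicate 1 for all 6, by -0.09 (mt-Nd1 and mt-Nd3) to -0.21 (mt-Nd5). The 4 libraries thus kept 1 order for every mt-Nd gene: Tdrd7 null replicate 2, Tdrd7 null replicate 1, control replicate 1, control replicate 2. For mt-Nd5 the middle step of this order, from Tdrd7 null replicate 1 to control replicate 1, was only 8.89 scaled reads. That is near its counting error (0.447% in its lowest library), so the reads do not settle this step.

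The direction was the same under 4 other scalings. In each of them the 5 genes were called higher and mt-Nd5 was not, and the log2 fold changes were between 0.26 and 0.63 for the 5 and between 0.09 and 0.14 for mt-Nd5. The split over all genes did move: 1077 genes were called higher and 843 lower with the deposited scaling, 869 higher and 1072 lower with upper-quartile scaling, and 766 higher and 1262 lower when the total was taken without the crystallin genes. The calls depended on the prior. With a prior that ignores intensity, 0 of the 6 mt-Nd genes were called by limma (5 had an unadjusted p under 0.05), with adjusted p between 0.0510 and 0.0701 for the 5, and 16 genes were called in all.

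The size of the change followed the length and base composition of the coding sequences. Over the 6 mt-Nd genes, which share their libraries, Spearman's rho between log2 fold change and length was -0.771 and that with GC content was -0.829. Over the 12 measured mitochondrially encoded protein genes they were -0.671 for length and -0.734 for GC content. Length and GC content ran together in these genes, so their shares in the relation cannot be separated within them. Differences between replicates of a single genotype also ran with these properties in the mitochondrially encoded genes. Over the same 12 genes, the log2 difference of replicate 2 minus 1 had a rho with length of -0.734 in Tdrd7 null lenses and -0.476 in control lenses, and a rho with GC content of -0.916 in Tdrd7 null lenses and -0.587 in control lenses. Over the 6 mt-Nd genes the rho of this replicate difference with GC content was -0.943 in Tdrd7 null lenses and -0.143 in control lenses. Its rho with length was -0.771 in Tdrd7 null lenses and -0.771 in control lenses, the same as that of the change between genotypes. For nuclear genes in Tdrd7 null lenses, the median of this difference was 0.03 under 40% GC and -0.03 at 55% or more. In control lenses it ran the other way, at -0.02 and 0.03. Between genotypes these 2 classes had medians of 0.21 and -0.16. Nuclear genes under 600 nt had replicate medians of -0.04 in Tdrd7 null lenses and 0.17 in control lenses. These are descriptions across genes, which are not independent replicates.

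**Figure D2:**
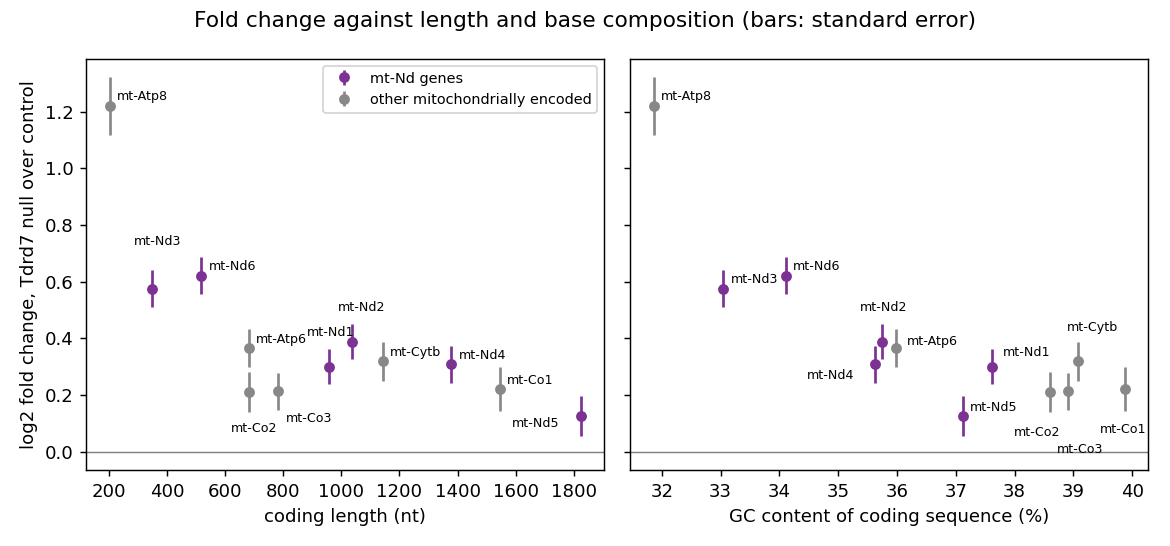
Log2 fold change of Tdrd7 null over control lenses (vertical axis, bars are standard errors) for the 12 measured mitochondrially encoded protein genes, against coding length in nt (left) and GC content in percent (right). The short, GC-poor genes mt-Nd3, mt-Nd6 and mt-Atp8 lie highest, and mt-Nd5, the longest, lies lowest at 0.13.

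Nuclear genes of like base composition also tended to be higher in Tdrd7 null lenses. The 598 nuclear genes under 40% GC had a median log2 fold change of 0.21 and 42.8% of them were called higher, whereas the 2351 genes of 55% GC or more had a median of -0.16 and 0.681% were called higher. Short length alone went with a smaller shift, a median of 0.09 over the 40 nuclear genes under 600 nt. All 6 mt-Nd genes lay under 40% GC, from 33.0% to 37.6%, and their median of 0.35 was above that of the nuclear genes in that class. The class was not matched to the mt-Nd genes in GC content or length. Only 1 tested nuclear gene had a GC content no higher than that of mt-Nd3, and 1 was both under 600 nt and under 40% GC. Whether base composition accounts for the change of the mt-Nd genes was not tested beyond the corrections that follow.

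With the GC trend alone removed from each library, mt-Nd3 (log2 fold change 0.25, limma adjusted p = 0.0281) and mt-Nd6 (0.32, limma adjusted p = 0.00772) were still called higher. The other 4 were not, at 0.07 for mt-Nd1, 0.12 for mt-Nd2, 0.04 for mt-Nd4 and -0.12 for mt-Nd5. Removal of the length trend alone left the same 5 called, at 0.27 for mt-Nd1, 0.37 for mt-Nd2, 0.39 for mt-Nd3, 0.31 for mt-Nd4 and 0.51 for mt-Nd6. With both removed, mt-Nd6 remained the highest at 0.16 (SE 0.0703, limma adjusted p = 0.257), mt-Nd3 stood at 0.04, mt-Nd2 at 0.03, mt-Nd1 at -0.03, mt-Nd4 at -0.03 and mt-Nd5 at -0.16 (SE 0.0700, limma adjusted p = 0.242). The groups then overlapped for 5 of the 6 genes, and mt-Nd5 lay lower in both Tdrd7 null pools than in either control pool. The estimates of mt-Nd1 (SE 0.0580) and mt-Nd4 (SE 0.0633) were thus within 1 standard error of 0, so no direction is read from them. Only mt-Nd5 turned from separated higher values to separated lower ones, and it was not called in either fit.

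The corrected values of the shortest genes rest on little. Of the tested nuclear genes 1 was no longer than mt-Nd3 and 21 were no longer than mt-Nd6, and 1 was both under 600 nt and under 40% GC. When the trend was taken from nuclear genes alone, mt-Nd3 stood at 0.07 and mt-Nd6 at 0.18, and again 0 of the 6 were called by limma (2 had an unadjusted p under 0.05). Over all 10656 tested genes, 204 were then called higher and 137 lower.

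**Figure D3:**
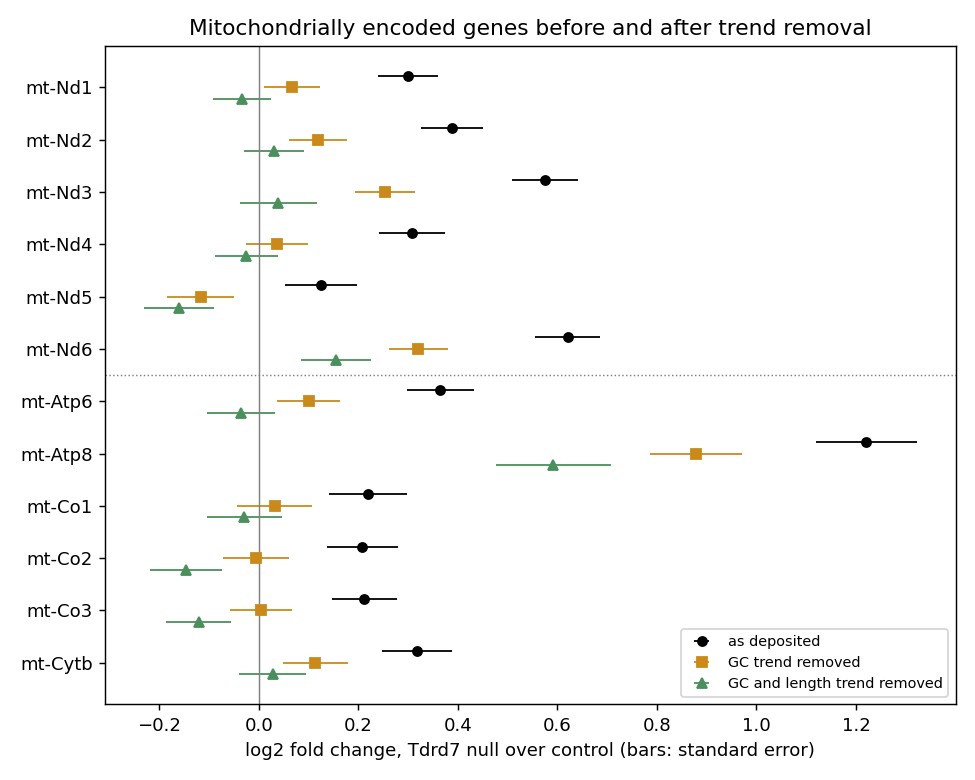
Log2 fold change of Tdrd7 null over control lenses (horizontal axis, bars are standard errors) as deposited (black circles), with the GC trend removed (orange squares) and with the GC and length trend removed (green triangles), for mt-Nd genes above the dotted line and other mitochondrially encoded genes below it. After both removals the mt-Nd genes lie between -0.16 (mt-Nd5) and 0.16 (mt-Nd6), and mt-Atp8 stays at 0.59.

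Levels can be compared between genes only per length, and they are given here as scaled reads per kb of coding length. In Tdrd7 null lenses mt-Nd4 (1201 ± 51.1, SD, n = 2) and mt-Nd1 (1193 ± 36.0) were highest and overlapped each other. They were followed by mt-Nd2 (1046 ± 42.0) and mt-Nd6 (906 ± 79.4), and then by mt-Nd3 (782 ± 76.1) and mt-Nd5 (766 ± 8.84), which overlapped.

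In control lenses mt-Nd4 (971 ± 56.0, SD, n = 2) and mt-Nd1 (969 ± 44.3) again overlapped at the top, with mt-Nd2 (799 ± 46.3) next. The lower part of the order differed: mt-Nd5 (704 ± 72.1) was above mt-Nd6 (588 ± 31.2), which was above mt-Nd3 (523 ± 23.9), with no overlap between these neighbours. On this per-kb scale mt-Nd6 lay above mt-Nd5 in both Tdrd7 null pools and below it in both control pools. Both orders come from the deposited scaling without correction for base composition.

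**Figure D4:**
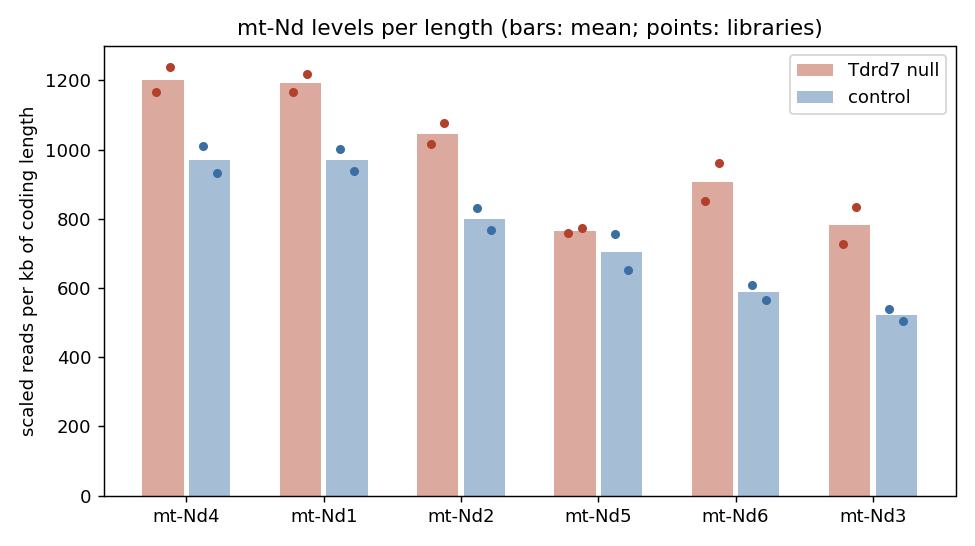
Scaled reads per kb of coding length (vertical axis, from 0) of the 6 measured mt-Nd genes, ordered by their control mean, with Tdrd7 null bars and points in red and control in blue (bars are means of 2 pools, points are pools). The mt-Nd6 bar exceeds the mt-Nd5 bar in Tdrd7 null lenses, at 906 against 766, and falls short of it in control lenses, at 588 against 704.

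A ratio of genes within a library does not depend on its scaling factor. The log2 ratio of mt-Nd6, read from the opposite strand, to the geometric mean of the 5 other measured mt-Nd genes was -1.06 and -0.97 in Tdrd7 null lenses, against -1.31 and -1.29 in control lenses. The groups did not overlap, and the difference of the means was 0.28 on the log2 scale. A two-sided exact permutation test gave p = 0.333, the smallest that 2 libraries against 2 allow. With the GC and length trend removed the difference was 0.19. Against mt-Nd5 alone it was 0.50, from -1.65 and -1.50 in Tdrd7 null lenses and -2.12 and -2.02 in control lenses. The ratio of mt-Nd3 to mt-Nd5, both read from the same strand, differed by a like amount, 0.45. The libraries keep no strand information, so reads over mt-Nd6 may come from RNA of either strand. The part of strand in these ratios was not tested.

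Within the summed mt-Nd reads, mt-Nd6 made up 7.53% and 8.07% in Tdrd7 null lenses, against 6.22% and 6.34% in control lenses. The share of mt-Nd5 was 23.7% and 22.8% in Tdrd7 null lenses and 27.0% and 25.7% in control lenses, so it was lower in both Tdrd7 null pools. The shares of mt-Nd1 and mt-Nd4 overlapped between genotypes, at 18.8% to 19.4% and 27.3% to 27.7% over the 4 libraries. For mt-Nd2, mt-Nd3, mt-Nd5 and mt-Nd6 the shares did not overlap (two-sided exact permutation p = 0.333 each, the smallest possible).

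The 6 mt-Nd genes together took 0.564% and 0.648% of all scaled reads in Tdrd7 null lenses, against 0.514% and 0.458% in control lenses. The means were 0.606 ± 0.0596% and 0.486 ± 0.0393% (SD, n = 2 each), a difference of 0.119 percentage points with no overlap (two-sided exact permutation p = 0.333). Without Tdrd7 null replicate 2 the difference was 0.0773 percentage points. Crystallin genes, which encode the bulk proteins of lens fibers, took 62.9% and 59.7% of the scaled reads in Tdrd7 null lenses and 62.3% and 63.0% in control lenses, and these ranges overlapped. Of the reads outside the crystallins the mt-Nd genes took 1.52% and 1.61% in Tdrd7 null lenses, against 1.36% and 1.24% in control lenses. Of the reads in mitochondrially encoded protein genes they took 31.9% and 32.5% in Tdrd7 null lenses and 31.6% and 31.7% in control lenses, a difference of 0.509 percentage points.

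The 6 other mitochondrially encoded genes with values are cut from the same strand's precursor as most mt-Nd genes and encode subunits of complexes III, IV and V. Of these 4 were called higher, against 10.1% of all tested genes, and the median log2 fold change of the 6 was 0.27. The 4 were mt-Atp8 (1.22), mt-Atp6 (0.36) and mt-Cytb (0.32), with limma adjusted p of 4.05e-05, 0.00448 and 0.00954, and mt-Co3 (0.21, limma adjusted p = 0.0413). The call of mt-Co3 was held in 9 of 22 alternatives and was lost under upper-quartile scaling (limma adjusted p = 0.0628), the total without crystallins (0.0843), the total without mitochondrially encoded genes (0.108) and the replicate block (0.0732). The cytochrome oxidase genes mt-Co1 (0.22, limma adjusted p = 0.0683) and mt-Co2 (0.21, limma adjusted p = 0.0574) did not pass. The shortest of all, mt-Atp8, had 282 and 383 scaled reads in Tdrd7 null lenses, against 144 and 137 in control lenses, so the Tdrd7 null pools differed widely while lying above both control pools. It was the 1 mitochondrially encoded gene still called after removal of the GC and length trend, at 0.59 (limma adjusted p = 0.0169). Without control replicate 2 the median log2 fold change of these 6 genes was 0.20, and without Tdrd7 null replicate 1 it was 0.28.

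The nuclear partners of the mt-Nd proteins moved less uniformly. Of 36 measured nuclear complex I subunit genes (of 37 listed), 8 rose, 2 fell and 26 did not pass, with a median log2 fold change of 0.04. That is 27.8% called, against 18.0% of all tested genes. The summed mt-Nd scaled reads were 3.39 and 3.50 times the summed nuclear complex I scaled reads in Tdrd7 null lenses, against 3.29 and 2.75 times in control lenses, with no overlap (two-sided exact permutation p = 0.333). After removal of the GC and length trend 2 of the 36 were called higher, Ndufa5 and Ndufa6, against 1.95% of all tested genes, and 0 lower by limma. Without control replicate 1 the median log2 fold change of the nuclear subunit genes was -0.02, and without Tdrd7 null replicate 2 it was 0.05.

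Among the 7 nuclear core subunits, which carry the flavin and the iron-sulfur clusters, 1 rose and 1 fell. That is 28.6% called, against 18.0% of all tested genes. The increase was in Ndufv2, a subunit of the NADH-oxidising module, with 51.7 and 54.7 scaled reads in Tdrd7 null lenses against 43.9 and 46.7 in control lenses (log2 fold change 0.23, limma adjusted p = 0.0217). Ndufs7, which holds the last iron-sulfur cluster before ubiquinone, fell to 18.4 and 16.8 scaled reads in Tdrd7 null lenses, against 20.6 and 23.1 in control lenses (-0.29, limma adjusted p = 0.0203). The groups did not overlap in either gene. Ndufs1 (0.16) and Ndufs8 (-0.10) did not pass. Ndufs1 shares 489 nt of exonic sequence with an antisense gene and its value is uncertain to that extent.

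Of 29 measured supernumerary subunits, which surround the core, 7 rose and 1 fell. That is 27.6% called, against 18.0% of all tested genes. Ndufa1, a membrane-arm subunit, had 286 and 326 scaled reads in Tdrd7 null lenses, against 226 and 237 in control lenses (log2 fold change 0.40, limma adjusted p = 0.00245). Ndufb3 (0.41), also of the membrane arm, and Ndufa5 (0.39) and Ndufa6 (0.26), of the peripheral arm, rose too, with limma adjusted p of 0.00521, 0.00448 and 0.00958. The groups did not overlap in these 4 genes. The other 3 that rose were Ndufb5, Ndufc1 and Ndufc2, and Ndufb10 fell by 0.22 on the log2 scale. These last 4 are named because they complete the count.

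Among genes that act on complex I assembly or on mitochondrial RNA, 1 and 2 were called higher, and 10.1% of all tested genes were. Of 16 measured assembly factors (of 17 listed) 1 rose: Ndufaf4, which acts early in the assembly of the peripheral arm, with 7.71 and 8.56 scaled reads in Tdrd7 null lenses against 6.08 and 5.35 in control lenses (log2 fold change 0.45, limma adjusted p = 0.00921). Ndufaf2 (0.29), Foxred1 (-0.32) and Nubpl (0.23) did not pass, and the median over the 16 was 0.12. Of 28 measured genes for the copying, transcription, processing and stability of mitochondrial DNA and RNA (of 34 listed), 2 rose, and the median was 0.05. They were Gabpa, a transcription factor subunit that acts on many nuclear genes for respiration (0.27, limma adjusted p = 0.00902), and Ssbp1, which binds single-stranded mitochondrial DNA (0.24, limma adjusted p = 0.0365). Slirp, a stabiliser of mitochondrial mRNA, stood at 0.27 and Mterf2, of a family that acts on mitochondrial transcription, at 0.30, and neither passed. Slirp shares 2914 nt of exonic sequence with the antisense gene Snw1 and 122 nt with the antisense gene Alkbh1. Ndufaf2 shares 1955 nt with an antisense gene, Mterf2 398 nt and Gabpa 397 nt. The libraries keep no strand information, so the values of Slirp, Ndufaf2, Mterf2 and Gabpa are uncertain to that extent. Neither list had a gene called by limma after removal of the GC and length trend. Leaving out each pool in turn gave median log2 fold changes of 0.07 to 0.14 for the assembly factors. For the mitochondrial DNA expression genes they were 0.05 to 0.08.

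**Figure D5:**
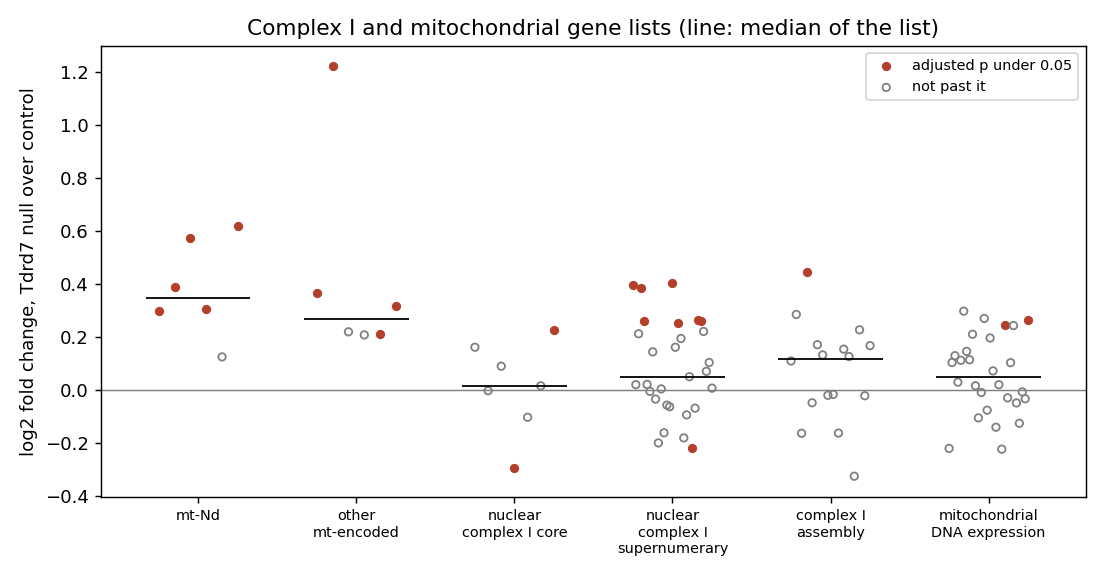
Log2 fold change of Tdrd7 null over control lenses (vertical axis) for each measured gene of 6 lists, with called genes in filled red, other genes open and the median of each list as a line. The mt-Nd median lies at 0.35, the medians of the nuclear lists between 0.02 and 0.12.

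The nuclear genes whose profile was nearest to the mean of the 6 mt-Nd genes, by the root mean square difference of centred log2 values over the 4 libraries, were Dzip3 (0.00823), Tmx3 (0.0116), Stim1 (0.0144), Esf1 (0.0153) and D19Ertd737e (0.0172), out of 10297 compared. The mean mt-Nd profile was 0.14 and 0.25 in Tdrd7 null lenses and -0.13 and -0.255 in control lenses on the centred log2 scale. These 5 are given as a description of the 4 libraries. Dzip3, for instance, had 43.7 and 47.9 scaled reads in Tdrd7 null lenses, against 36.4 and 33.3 in control lenses. The GC content of 4 of the 5 was between 35.3% and 40.8%, and that of Stim1 was 54.5%. Tmx3 shares 491 nt of exonic sequence with a gene on the same strand, and D19Ertd737e shares 366 nt with an antisense gene. The values of Tmx3 and D19Ertd737e are uncertain to that extent.

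Nuclear copies of mitochondrial sequence can take or lend reads. Annotated pseudogenes matched mt-Nd3 over 345 of its 348 nt at 99.7% identity (Gm28438), mt-Nd4 over 876 of 1378 nt at 100% (Gm28439), mt-Nd2 over 510 nt at 96.7% (Gm13339), mt-Nd5 over 954 nt at 95.2% (Gm4076) and mt-Nd4l over 294 of 297 nt at 100% (Gm10222). No annotated transcript matched mt-Nd1 or mt-Nd6 at 95% identity over 100 nt. None of these pseudogenes was among the genes with values, so reads shared with them could not be seen, and the values of mt-Nd2, mt-Nd3, mt-Nd4 and mt-Nd5 are uncertain to that extent.

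The libraries held 39080159 and 33920522 reads in the listed genes for Tdrd7 null and 41096488 and 42767535 for control. Tdrd7 was lower in both Tdrd7 null pools, at 165 and 96.6 scaled reads against 1188 and 972 in control lenses, as the genotype labels of the 4 libraries have it. All 10 lens fiber markers had values, with 23.5% to 24.7% of scaled reads in every library, as did all 4 lens epithelium markers. Of other cells, all 4 endothelial markers had values, summing to 11.5 and 15.4 scaled reads in Tdrd7 null lenses and 14.9 and 10.1 in control lenses, groups that overlap. Of 4 red blood cell markers 1 had values (Hbb-bs, 0.35 to 1.42 scaled reads), and none of the 4 macrophage markers was listed. The part of these markers in the mt-Nd values was not tested.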

How the data were processed

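Per the series' design text, small RNA was removed, polyadenylated RNA selected and TruSeq RNA version 2 libraries, which keep no strand information, were sequenced. Per the submitters' processing notes, Cufflinks, Cuffnorm, TopHat2 2.0.9 and Trimmomatic were among the upstream tools, with mm10 (GRCm38). The read counter and the scaling step are not given in the sources used. The authors deposited 1 signal value per gene and library. Dividing by 1 step per library (0.0266 and 0.0282 for Tdrd7 null, 0.0241 and 0.0237 for control) brought every value to within 0.001 of a whole number, so the values are called scaled reads. They are not corrected for length. The smallest maximum over libraries of any gene was 1.02, so rarely read genes had been left out. Columns outside the series numbered 0.

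The fit used log2(scaled reads + 1) of the 10696 genes that averaged 1 or more, a scale that understates the change of low genes. The test of genotype was limma 3.58.1 (R 4.3.3) with a prior that depends on intensity, 2 residual and 11.1 prior degrees of freedom, two-sided, and Benjamini-Hochberg adjustment. The fit was tested on simulated data. GC and length came from GENCODE M21 for 10750 genes, and trends were removed per library with natural splines of 5 degrees of freedom. Exact permutation tests used SciPy 1.17.1 and copies were sought with BLAST 2.17.0. A count model had been planned as an alternative and was not run. Intervals of counting error cover sampling of reads only.

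Named genes were all mt-Nd genes, Tdrd7, all other mitochondrially encoded genes with values, up to 4 per list by smallest unadjusted p, and the 5 nearest nuclear profiles. The nearest profiles leave out pseudogenes, predicted genes and genes on the Y chromosome. The members and lists were chosen with earlier results of these data known. Lists were matched by symbol, and 6 genes by identifier. Exonic overlaps of at least 100 nt touched Ndufs1, Ndufaf2, Gabpa, Slirp, Mterf2, Tmx3 and D19Ertd737e. Alternatives changed the pseudocount, filter, scaling, prior, block, threshold, trends and libraries.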

Additional observations from a re-analysis of the deposited data

How the results depend on the processing

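Over 22 alternatives of the fit, mt-Nd3 and mt-Nd6 kept their direction in all and their call in 18, mt-Nd2 its direction in all and its call in 17, and mt-Nd1 and mt-Nd4 both in 16. Changes of threshold, prior, filter or block cannot alter the log2 fold change, so a direction kept under them was fixed in advance. A looser threshold also cannot lose a call. Pseudocount, filter, upper-quartile and median-of-ratios scaling and the robust prior left 5 mt-Nd genes called. The changes were as follows, and the cause was not tested. With the prior without the trend, 16 genes were called, with 0 mt-Nd, 1 other mitochondrially encoded, 0 nuclear complex I, 0 assembly and 0 mitochondrial DNA expression genes. With the GC trend removed the calls were 464, 2, 1, 6, 0 and 0 in the same order, and mt-Nd5 stood at -0.12 and mt-Co2 at -0.0048. With the GC and length trend removed they were 350, 0, 1, 2, 0 and 0. Then mt-Nd1 stood at -0.034, mt-Nd4 at -0.025, mt-Nd5 at -0.16, mt-Atp6 at -0.036, mt-Co1 at -0.029, mt-Co2 at -0.15 and mt-Co3 at -0.12, and the log2 difference of mt-Nd6 relative to the other measured mt-Nd genes was 0.19. With that trend taken from nuclear genes they were 341, 0, 1, 2, 0 and 0. Then mt-Nd1 stood at -0.029, mt-Nd4 at -0.021, mt-Nd5 at -0.16, mt-Atp6 at -0.023, mt-Co1 at -0.031, mt-Co2 at -0.14 and mt-Co3 at -0.11.

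Rescaled to the total without mitochondrially encoded genes, the fit called 959 genes, 3 nuclear complex I and 0 mitochondrial DNA expression genes. Mitochondrial DNA expression calls were 1 with upper-quartile scaling and 1 with the total without crystallins. At an adjusted p under 0.1 the calls were 16 nuclear complex I, 3 assembly and 4 mitochondrial DNA expression genes. The robust prior left Tdrd7 at -3.08 (limma adjusted p = 0.0555). Against mt-Nd5 alone the mt-Nd6 difference was 0.50, and the summed mt-Nd share differed by 0.264 percentage points without crystallins and by 0.509 within mitochondrially encoded protein genes.

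Whether the replicate numbers pair the pools cannot be told from the values. Same-numbered deviations had a correlation of -0.15 across genes, which rests on a single difference per genotype. With the number as a replicate block 2117 genes and 5 mt-Nd genes were called, with 3 assembly genes. With the replicate block and the GC and length trend removed, the calls were 408, 0, 1, 3, 0 and 0, and mt-Nd1 (-0.034), mt-Nd4 (-0.025), mt-Nd5 (-0.16), mt-Atp6 (-0.036), mt-Co1 (-0.029), mt-Co2 (-0.15) and mt-Co3 (-0.12) stood below 0. A crossed pairing, chosen after seeing the data like the removal of the length trend alone, gave 3036 calls, with 17 nuclear complex I, 3 assembly and 5 mitochondrial DNA expression genes.

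Leaving out each library in turn gave 431 to 2196 calls, with 3 to 5 mt-Nd, 1 to 6 other mitochondrially encoded, 2 to 13 nuclear complex I, 0 to 3 assembly and 0 to 5 mitochondrial DNA expression genes, the lone pool being assumed to vary like the other genotype. Count models and trimmed-mean scaling were not run. With 2 pools per genotype the spread, not read depth, limits the precision of the mt-Nd values.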
